A study of Mus musculus with 8 samples.

Results

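Fibroblasts and carcinoma cells sorted from the same kind of mouse tumor were compared across all genes. The comparison sets a stromal mesenchymal program beside a malignant one. The tumors were Lewis lung carcinomas, formed by a mouse lung carcinoma cell line injected under the skin of both flanks. The injected cells carried the red fluorescent protein dTomato, introduced with an expression vector and enriched by sorting in culture. The host mice were Col1a1-GFP transgenic mice, in which green fluorescent protein (GFP) marks cells that use the collagen gene Col1a1. Collagen labelled with an Alexa dye had been injected into all tumors 24 h before they were made into cell suspensions. The GFP+ cells form the group Fibroblast and the dTomato+ cells the group LLC, with 2 libraries each, so that 4 of the 8 libraries of the series carry the comparison. The other 4 were 2 of whole tumor, called Total tumor, and 2 of F4/80+ collagen-positive macrophages, called TAM. They entered the estimate of the spread between libraries, the choice of genes tested and of the transcript for each gene, and the rescalings. The sources used here give no sex, age or strain background for the mice. Nor is it stated that both libraries of a group are from different mice. A p-value therefore reflects only how far the 2 libraries of a group differ, pooled over all 4 groups, and this may be technical.

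Fibroblasts build and remodel the connective tissue matrix: they secrete fibrillar collagens, crosslink them with lysyl oxidases and coat them with small proteoglycans. In tumors they also secrete complement proteins, chemokines and growth factors, and some become contractile and are then called myofibroblasts. Adventitial fibroblasts, which lie around vessels, are known for Pi16 and Clec3b. Lewis lung carcinoma cells descend from an epithelial lung tumor but grow as spindle-shaped cells with few epithelial features. Hmga2, a chromatin protein of embryonic cells that many carcinomas use again, is among the genes known from such malignant cells.

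Levels are RPKM, reads scaled to transcript length and to the size of the library. Differences are given on the scale of log2(RPKM + 1), Fibroblast minus LLC, which understates the difference of genes with low values. A gene was called when its Benjamini-Hochberg adjusted p from limma, fitted over all 13311 genes tested, was under 0.05. Of these genes 5142 (38.6%) were called: 1726 (13.0%) were higher in Fibroblast and 3416 (25.7%) were higher in LLC. In 10537 genes (79.2%) the 2 Fibroblast and the 2 LLC libraries did not overlap, so non-overlap alone was common. The median difference of all genes was -0.46, so that the typical gene lay lower in Fibroblast. Upper-quartile rescaling of the libraries moved this median to -0.05 and the calls to 2219 higher in Fibroblast and 1480 higher in LLC, and quantile normalization moved them to 2091 and 2313. No call had the opposite direction under either. For the main lists the median is therefore also given after subtracting that of all genes. The files give no read totals, and a rough estimate of depth from the steps between low values was 10.37 and 4.72 M reads in the Fibroblast libraries and 10.37 and 4.28 M reads in the LLC libraries. In LLC 2, the shallowest of the 4, 1 read on a transcript of 2 kb is worth about 0.117 RPKM. Between the 2 libraries of a group the median gene differed by 0.21 (Fibroblast), 0.25 (LLC), 0.29 (TAM) and 0.60 (Total tumor) on the log2 scale. The fit pools these 4 groups in its estimate of the spread. In bulk libraries, fewer cells of a type and less RNA per cell cannot be told apart.

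The 4 marker genes of the comparison had the 2 largest log2 differences of all tested genes in each direction. They were given with the comparison and may have been chosen from these data, so their rank is no test. Clec3b, which encodes tetranectin, a plasminogen-binding protein, stood at 992 and 937 RPKM in the Fibroblast libraries and at 8.66 and 17.7 RPKM in the LLC libraries. Its difference of 6.17 (SE 0.92, limma adjusted p = 0.00207) was the largest of the 13311. Pi16, a secreted peptidase inhibitor of adventitial fibroblasts, stood at 1822 and 1638 RPKM in Fibroblast and 17.6 and 37.8 RPKM in LLC (log2 difference 6.01, SE 0.73, limma adjusted p = 0.000929). In the other direction, Nxf3, an X-linked member of the RNA export factor family, had 43.8 and 46.6 RPKM in LLC against 0.065 and 0.071 RPKM in Fibroblast. Its log2 difference was -5.43 (SE 0.36, limma adjusted p = 0.000272). Hmga2 stood at 87.9 and 90.9 RPKM in LLC and at 1.45 and 1.77 RPKM in Fibroblast (log2 difference -5.12, SE 0.23, limma adjusted p = 0.000272). The 2 libraries of each group lay close together for Hmga2 and Nxf3, whereas Clec3b and Pi16 were higher in LLC 2 than in LLC 1.

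**Figure D1:**
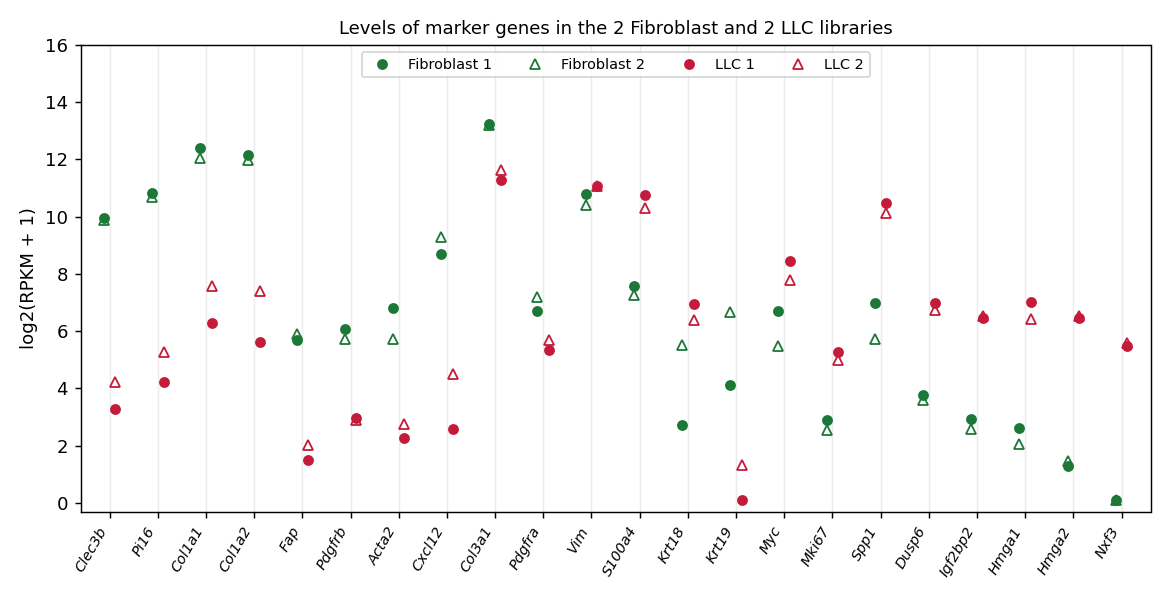
Levels of 22 genes in the 2 Fibroblast (green) and 2 LLC (red) libraries, as log2(RPKM + 1); circles are library 1 and triangles library 2 of each group. The stromal genes on the left and the malignant genes on the right lie far apart between the groups, while Vim lies close together and Krt18 and Krt19 differ between the 2 Fibroblast libraries.

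The 15 largest differences toward Fibroblast included many genes of secreted proteins. After Clec3b and Pi16 came Gpx3 (secreted glutathione peroxidase; 1966 and 1980 RPKM in Fibroblast), the complement genes C3, C4b and Serping1, Adh1 (an alcohol dehydrogenase that acts on retinol), and Postn, which encodes the matricellular protein periostin. The others were Cpxm1, Lbp (which binds bacterial lipopolysaccharide), Nbl1 (a BMP antagonist), Loxl1, Gpc3, Igfbp5 and Fndc1. In LLC 1 the levels of these 15 genes were 0.994% of the Fibroblast mean at the median, with a range from 0.367 to 1.30%. LLC 2 held a median of 2.38% (range 1.24 to 3.69%). Each of the 15 thus had a level above 0 in both LLC libraries, and the median share was higher in LLC 2. Whether these low levels came from the carcinoma cells was not tested.

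The 15 largest differences toward LLC held, beside Nxf3 and Hmga2, Ank, a membrane protein that exports pyrophosphate and citrate (234 and 263 RPKM against 7.0 and 10.3 RPKM), and Dusp9, a phosphatase of ERK kinases. Plac1, a gene of the placenta (37.9 and 22.1 RPKM against 0.361 and 0.395 RPKM), and Rhox2d, an X-linked homeobox gene of the reproductive tissues, belong to them too. Eya1, a developmental transcriptional coactivator, stood at 18.8 and 23.4 RPKM in LLC and at 0.023 and 0.050 RPKM in Fibroblast. Dkk2, a secreted modulator of Wnt signalling, reached 164 and 202 RPKM in LLC against 9.86 and 7.28 RPKM. Others were Nptx1, Slc14a1, Gm773, Hmga1 (129 and 84.8 RPKM in LLC), Pla2g7 and Tenm4. Tenm4 lost its call without Fibroblast 1 or Fibroblast 2 (limma adjusted p = 0.0587 and 0.0527). In Fibroblast these 15 genes lay at a median of 1.62 and 1.71% of their LLC mean.

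Of 25 general and adventitial fibroblast markers, 22 were called higher in Fibroblast and 1 higher in LLC. Their median log2 difference was 4.22, or 4.69 relative to all genes. Thy1, Pdpn, Dpp4 and Cd34, surface proteins used to sort fibroblasts, had log2 differences of 5.45, 5.05, 5.41 and 4.30, each called in all 21 alternative fits. They were named after their values were seen. Fap, the fibroblast activation protease, stood at 50.9 and 58.6 RPKM in Fibroblast against 1.87 and 3.04 RPKM (log2 difference 4.03, SE 0.38, limma adjusted p = 0.000387). A few members departed from the list. S100a4, a calcium-binding protein also called fibroblast-specific protein, was the member higher in LLC, at 1720 and 1251 RPKM against 191 and 154 RPKM. The difference of -3.09 (SE 0.58, limma adjusted p = 0.00541) did not pass without LLC 1 (adjusted p = 0.0511), Fibroblast 1 (adjusted p = 0.0530) or Fibroblast 2 (adjusted p = 0.0750). Lum, a collagen-binding proteoglycan, was at 617 and 666 RPKM in Fibroblast and 434 and 422 RPKM in LLC (adjusted p = 0.265), and Dpt, dermatopontin, at 1063 and 1080 RPKM against 292 and 505 RPKM (adjusted p = 0.0658). Neither of the 2 was called. Pdgfra, the receptor often used to define fibroblasts, stood at 104 and 145 RPKM in Fibroblast and 40 and 51.3 RPKM in LLC. Its difference of 1.42 (limma adjusted p = 0.0385) lost its call without any 1 of the 4 libraries, with adjusted p between 0.0930 and 0.209.

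Markers of other cell types were present in both groups, at levels that differed by cell type. The 20 macrophage genes summed to 319 and 416.5 RPKM in Fibroblast, 130 RPKM in LLC 1 and 788 RPKM in LLC 2, against 29300 and 23370 RPKM in TAM. None of the 20 was called. Emr1, which encodes the macrophage antigen F4/80, stood at 0.507 RPKM in LLC 1 and 8.74 RPKM in LLC 2, with 1.88 and 3.20 RPKM in Fibroblast. Ptprc, the pan-leukocyte gene CD45, had the same order, 1.01 and 5.20 RPKM in LLC against 1.90 and 3.23 RPKM. Macrophage RNA thus lay higher in LLC 2 than in the other 3 libraries. The same library was the higher of the 2 for MHC class II genes, such as Cd74 (20.6 RPKM in LLC 1 and 145 RPKM in LLC 2, 101 and 122 RPKM in Fibroblast), and the share of macrophage RNA in those values was not tested. Endothelial genes summed to 141 and 107 RPKM in Fibroblast and 56.3 and 55.1 RPKM in LLC, against 115 and 176 RPKM in Total tumor. Of 12 tested, 7 were called higher in Fibroblast, led by Tek, the receptor of angiopoietins (20.2 and 31.4 RPKM against 0.249 and 0.502 RPKM). That count was 3 without LLC 1 and 2 without Fibroblast 1. The endothelial gene with the highest level, Eng, a TGF-beta coreceptor of mesenchymal cells too, did not separate the groups (46.2 and 36.8 against 42.3 and 39.4 RPKM). T and NK cell, B cell, neutrophil, skeletal muscle and keratinocyte lists had no called member, while mast cell, adipocyte and Schwann cell lists had 1 each, higher in Fibroblast. Adipocyte genes summed to 112 and 41.8 RPKM in Fibroblast and 6.75 and 18.6 RPKM in LLC, against 44.8 and 40.9 RPKM in Total tumor. Most of the Fibroblast sum was Fabp4 (109 and 36.1 RPKM), whose call was lost without LLC 1 or Fibroblast 1.

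Genes of the response to tissue dissociation, mostly immediate early genes, differed inside the Fibroblast group. The 20 genes summed to 6026 RPKM in Fibroblast 1 and 2469 RPKM in Fibroblast 2, against 1635 and 1211 RPKM in LLC. In the fit 8 were called higher in Fibroblast and Hsph1, a heat shock protein, was higher in LLC. Without LLC 1, LLC 2 or Fibroblast 1 a single gene passed, and 9 passed without Fibroblast 2. Btg2, an antiproliferative early gene, had 38.4 and 24.8 RPKM against 2.87 and 4.08 RPKM (log2 difference 2.85, limma adjusted p = 0.00181) and passed in each of these fits. Egr1 (595 and 351 RPKM against 51.7 and 42.1 RPKM) did not pass without LLC 1, LLC 2 or Fibroblast 1 (adjusted p from 0.0519 to 0.0786). Epithelial genes split the Fibroblast libraries in the other direction, as given with the keratins further on. Both splits are measured facts about the 2 Fibroblast libraries, and their part in the results was not tested.

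Fibrillar collagens, the rope-like collagens of connective tissue, were mostly higher in Fibroblast. Of 8 tested, 7 were called higher in Fibroblast and none higher in LLC, with a median log2 difference of 2.49 (2.95 relative to all genes). Col1a1 stood at 5315 and 4200 RPKM in Fibroblast and 76.2 and 192 RPKM in LLC (log2 difference 5.28, SE 0.83, limma adjusted p = 0.00258). GFP under Col1a1 gated the Fibroblast cells, and the part of the gate in this difference was not tested. Col1a2, which encodes the partner chain of type I collagen and was not used in the gate, went with it, at 4550 and 4003 RPKM against 48.4 and 168 RPKM (log2 difference 5.55, SE 0.89, adjusted p = 0.00290). Col5a2 behaved alike (422 and 400 against 4.71 and 17.1 RPKM). The part of the gate in the differences of Col1a2 and Col5a2 was not tested either. Type III collagen was not called. Col3a1 was the most abundant fibrillar collagen in all 4 libraries, at 9618 and 9421 RPKM in Fibroblast and still at 2507 and 3142 RPKM in LLC. The libraries did not overlap, but its log2 difference of 1.76 (SE 0.75) was not called (limma adjusted p = 0.0991). It passed with upper-quartile rescaling (adjusted p = 0.0456) and in a fit of the 4 libraries alone (adjusted p = 0.0392). Per transcript length, the level of Col3a1 was 1.81 and 2.24 times that of Col1a1 in the Fibroblast libraries and 32.9 and 16.4 times in the LLC libraries. Col5a1 resembled Col3a1, with 419 and 352 RPKM in Fibroblast and 112 and 136 RPKM in LLC. Its difference of 1.63 (adjusted p = 0.0235) was lost without any 1 of the 4 libraries, with adjusted p up to 0.132.

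Other collagens divided between the cell types. Of 13 tested, 8 were higher in Fibroblast and 3 higher in LLC, with a median log2 difference of 2.90. The share higher in LLC lay below the 25.7% of all genes. Col14a1, a collagen that sits on fibril surfaces, stood at 281 and 327 RPKM against 3.32 and 11.7 RPKM (log2 difference 5.36, adjusted p = 0.00186), and Col15a1 and Col12a1 lay 4.57 and 3.99 higher in Fibroblast. Col18a1, a collagen of basement membranes and the precursor of endostatin, was higher in the carcinoma cells: 322 and 285 RPKM against 89.7 and 58.4 RPKM (log2 difference -2.05, SE 0.27, adjusted p = 0.00127). Col7a1, of the anchoring fibrils under epithelia, had 12.6 and 7.66 RPKM in LLC against 3.54 and 1.32 RPKM, and the call was lost without LLC 1 (adjusted p = 0.0863) or Fibroblast 2 (adjusted p = 0.0868). The third, Col8a1, was lost without any 1 of the 4 libraries, with adjusted p between 0.0801 and 0.173. Laminins, the cross-shaped proteins of basement membranes, differed by chain. Lama4 and Lama2, the alpha chains of mesenchymal and vascular basement membranes, had 127 and 130 RPKM and 37.3 and 44.3 RPKM in Fibroblast, and at most 3.95 RPKM in LLC (log2 differences 4.93 and 4.53). Lama5, the alpha chain of epithelial basement membranes, was at 49.8 and 46.8 RPKM in LLC against 1.94 and 2.87 RPKM (log2 difference -3.87, SE 0.25, adjusted p = 0.000272). In all, 7 of 15 basement membrane genes were higher in Fibroblast, Nid2 and Lamb2 among them. Here too the share higher in LLC lay below the 25.7% of all genes. The 2 higher in LLC were Lama5 and Agrn, and Agrn lost its call without any 1 of the 4 libraries and under both rescalings (adjusted p from 0.0631 to 0.144).

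**Figure D2:**
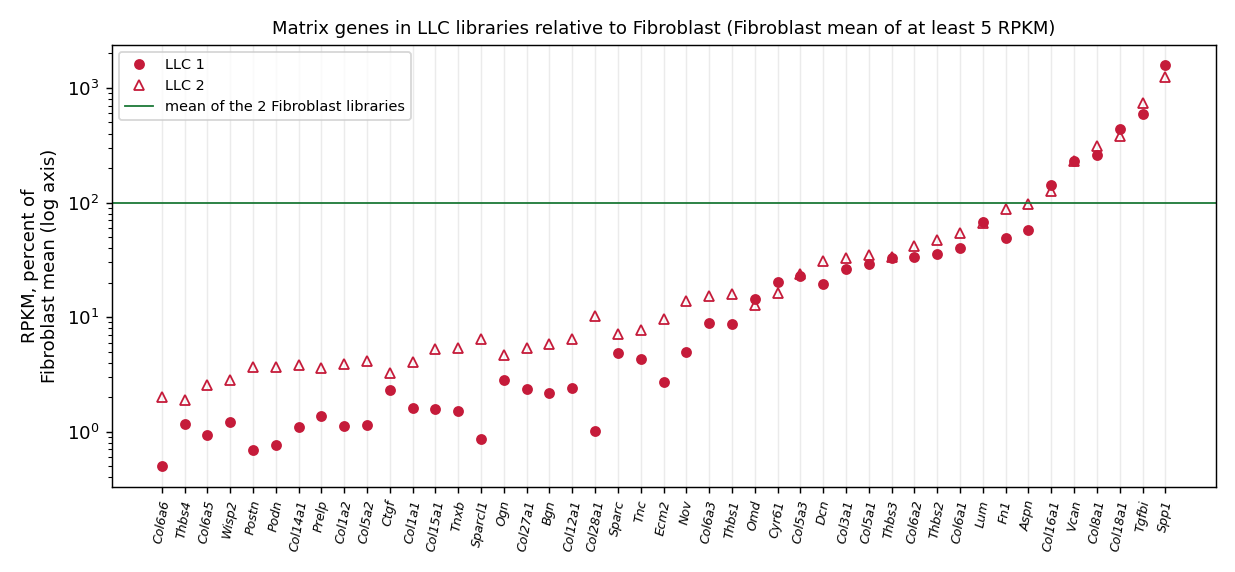
RPKM of 45 collagen, small proteoglycan and matricellular genes in LLC 1 (filled circles) and LLC 2 (open triangles), in percent of the mean of the 2 Fibroblast libraries (green line), on a log axis, for genes with a Fibroblast mean of at least 5 RPKM. Many genes lie at a few percent in both libraries, with LLC 2 above LLC 1, whereas Col3a1 (26.3 and 33.0%) and Lum (67.6 and 65.8%) lie far higher and Spp1, Tgfbi and Col18a1 lie above the line.

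Of 24 genes of collagen modification and crosslinking, 12 were higher in Fibroblast and 2 in LLC. The first count was 8 without LLC 1, Fibroblast 1 or Fibroblast 2, and 17 with upper-quartile rescaling. The 4 largest differences were those of enzymes that act on collagen outside the cell: Lox at 151 and 175 RPKM against 1.66 and 7.50 RPKM, Loxl1 at 466 and 432 against 5.83 and 10.7 RPKM, Loxl2 at 189 and 173 against 3.22 and 7.83 RPKM, and Adamts2, which trims procollagen, at 152 and 154 against 1.70 and 5.04 RPKM. Their log2 differences ran from 4.90 to 5.65. Other extracellular members were not called, such as Adamts14, a relative of Adamts2 (20.4 and 19.9 against 21.5 and 21.8 RPKM), Loxl3 (64.3 and 57.4 against 50.8 and 41 RPKM) and Pcolce, which enhances procollagen cleavage (724 and 549.5 against 427 and 287 RPKM). Genes of the endoplasmic reticulum were also mixed. P4hb, the shared subunit of prolyl hydroxylase, had 533 and 496 RPKM in Fibroblast and 461 and 537 RPKM in LLC, and P4ha1 had 71.9 and 73.4 against 50.9 and 96.7 RPKM. Neither difference was called (adjusted p = 0.932 and 0.927), and the groups overlapped for both. The catalytic subunit P4ha3 was higher in Fibroblast (40.1 and 37.5 against 8.8 and 9.32 RPKM). Serpinh1, the collagen chaperone, was too (1203 and 1082 against 384 and 364 RPKM, adjusted p = 0.0124), a call lost without any 1 of the 4 libraries (adjusted p from 0.0684 to 0.0823). Leprel1, a prolyl 3-hydroxylase, was higher in LLC at 10.6 and 9.90 RPKM against 1.46 and 1.04 RPKM (log2 difference -2.33, adjusted p = 0.00348). Plod2, a lysyl hydroxylase, had 138 and 192 RPKM in LLC against 69.0 and 68.7 RPKM, a call lost without LLC 2 and without either Fibroblast library (adjusted p from 0.0892 to 0.102) and under both rescalings.

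Small leucine-rich proteoglycans, which space collagen fibrils and bind growth factors, were mostly higher in Fibroblast. Of 12 tested, 8 were higher in Fibroblast and 2 higher in LLC, with a median log2 difference of 2.16. Bgn (biglycan) stood at 1198 and 1183 RPKM against 26.1 and 69.5 RPKM (log2 difference 4.77, adjusted p = 0.00496), Prelp at 273 and 308 against 3.95 and 10.5 RPKM, and Ogn and Podn lay 4.65 and 4.78 higher in Fibroblast. Dcn (decorin) was abundant in both groups, 2940 and 3285 RPKM against 605 and 961 RPKM. Its difference of 2.03 (adjusted p = 0.0381) was lost without any 1 of the 4 libraries, with adjusted p up to 0.199. Aspn overlapped between the groups (76.6 and 54.2 against 37.6 and 63.7 RPKM). Kera, keratocan, a proteoglycan best known from the cornea, appeared on the malignant side: 11.7 and 6.10 RPKM in LLC against 0.099 RPKM in Fibroblast 1 and a listed 0 in Fibroblast 2 (log2 difference -3.18, SE 0.40, adjusted p = 0.00104). Podnl1, the other member higher in LLC, had 3.62 and 4.38 RPKM against 0.464 and 0.712 RPKM. Dcn, Lum, Aspn, Col3a1 and Dpt were thus genes of the fibroblast program with at least 19.4% of the Fibroblast mean in both LLC libraries, while Bgn, Prelp, Podn and Col1a2 had at most 5.84%.

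Elastic fiber and matricellular genes were mostly higher in Fibroblast, with a few abundant exceptions. Among 17 elastic fiber and microfibril genes, 11 were higher in Fibroblast, such as Mfap5 (488 and 385 against 5.15 and 13.6 RPKM), Efemp1 (830 and 920 against 14.9 and 24.6 RPKM), Mfap2 and Fbln2. Ltbp3, which stores latent TGF-beta in the matrix, was higher in LLC at 95.2 and 102 RPKM against 42.8 and 42.1 RPKM (log2 difference -1.19, adjusted p = 0.00341). Among 18 matricellular genes, which encode matrix proteins that signal rather than bear load, 12 were higher in Fibroblast and 3 in LLC. Postn stood at 661 and 672 RPKM against 4.6 and 24.6 RPKM (log2 difference 5.80, adjusted p = 0.00330). Wisp2, Tnxb and Ctgf lay 5.38, 4.93 and 4.50 higher in Fibroblast. Spp1, osteopontin, was the opposite case, with 1420 and 1105 RPKM in LLC against 126 and 52.2 RPKM (log2 difference -3.93, SE 0.58, adjusted p = 0.00204). Tgfbi, an adhesion protein induced by TGF-beta, had 194 and 240 RPKM in LLC against 33.4 and 32.1 RPKM (log2 difference -2.68, adjusted p = 0.000621). Vcan (versican) had 140 and 141 RPKM in LLC against 60.1 and 63.0 RPKM, a call lost without any 1 of the 4 libraries (adjusted p from 0.114 to 0.145) and under both rescalings. Fn1, fibronectin, was at 961 and 1320 RPKM in Fibroblast and 558 and 998 RPKM in LLC and overlapped between the groups (adjusted p = 0.570).

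Hyaluronan and heparan sulfate carriers gave small groups. Of 11 hyaluronan genes 4 were higher in Fibroblast, Itih5 (85.4 and 97.7 against 1.29 and 2.91 RPKM), Has1, Tnfaip6 and Has2, and 4 were higher in LLC. Has1, a hyaluronan synthase, differed between the Fibroblast libraries (123 and 12.8 RPKM), which themselves differed in dissociation genes. Whether Has1 followed those genes was not tested. The LLC side of this list was not stable: of its 4 members 1 passed without LLC 1 and none without LLC 2 or either Fibroblast library. Cd44, the hyaluronan receptor, was among them at 58.0 and 84.5 RPKM against 43.2 and 35.9 RPKM (adjusted p = 0.0497). Of 9 glypicans and syndecans 4 were higher in Fibroblast and 2 in LLC, or 2 and 0 without LLC 1 or Fibroblast 2. The share higher in LLC lay below the 25.7% of all genes, and with upper-quartile rescaling 0 were called there. Gpc3, a surface proteoglycan of embryonic mesenchyme, stood at 268 and 239 RPKM in Fibroblast and 2.59 and 6.18 RPKM in LLC. Gpc4 stood at 35.5 and 28.0 against 0.498 and 1.61 RPKM. Gpc1, another glypican, was higher in LLC at 90.4 and 66.8 RPKM against 39.6 and 25.5 RPKM (adjusted p = 0.0114), a call lost without LLC 1 (adjusted p = 0.0921), without Fibroblast 2 (adjusted p = 0.0927) and with upper-quartile rescaling (adjusted p = 0.0582). Sdc4, a syndecan, had 102 and 116 RPKM in LLC against 60.8 and 54.5 RPKM, a call lost without any 1 of the 4 libraries (adjusted p from 0.12 to 0.186).

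Contractile genes of myofibroblasts gave calls in both directions. Acta2, smooth muscle actin, had 110 and 51.3 RPKM against 3.82 and 5.72 RPKM (log2 difference 3.74, SE 0.40, adjusted p = 0.000566). Myl9 had 87.4 and 52.7 RPKM against 2.05 and 1.73 RPKM, and Des (desmin) 35.7 and 16.2 RPKM against 0.225 and 0.326 RPKM. Fibroblast 1 was the higher of the 2 libraries for all 3. Of 13 tested genes, 7 were higher in Fibroblast and 3 in LLC, the latter a share below the 25.7% of all genes. Tpm1, a tropomyosin of many cell types, was higher in LLC at 408 and 334 RPKM against 129 and 97.2 RPKM (log2 difference -1.71, adjusted p = 0.00382). The other 2, Cnn2 and Cald1, lost their calls without any 1 of the 4 libraries, with adjusted p from 0.0534 to 0.139. Pericyte genes include some that fibroblasts use too, such as Anpep. Pericytes, the contractile cells on capillaries, also use collagen genes and could fall into the GFP gate. All 12 pericyte genes tested were called higher in Fibroblast and remained 12 in number without any 1 of the 4 libraries. They summed to 508 and 412 RPKM in Fibroblast and 29.5 and 36.6 RPKM in LLC. Rgs5, a regulator of G protein signals, had 67.2 and 57.7 RPKM against 0.639 and 2.19 RPKM. Kcnj8, a potassium channel subunit, had 22.5 and 15 RPKM against 0.704 and 0.107 RPKM. Whether separate pericytes or the fibroblasts themselves carried this RNA was not tested.

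Of 28 matrix proteases and inhibitors tested, 15 were higher in Fibroblast and 3 in LLC. Mmp2, a gelatinase activated at the cell surface, stood at 1004 and 1053 RPKM in Fibroblast against 19.6 and 32.1 RPKM (log2 difference 5.30, SE 0.85, adjusted p = 0.00279). Mmp14, the membrane protease that activates it, was at 364 and 391 RPKM against 278 and 326 RPKM and was not called (adjusted p = 0.460). Ctsk, cathepsin K, a collagen-degrading lysosomal protease, had 200 and 236 RPKM in Fibroblast against 2.75 and 7.10 RPKM (log2 difference 5.31, adjusted p = 0.000272). Mrc2, the fibroblast receptor for collagen uptake, had 93.3 and 76.3 RPKM against 3.28 and 3.18 RPKM (log2 difference 4.34, adjusted p = 0.000419). The inhibitor Timp3 (149 and 102 RPKM) and the inhibitor Serpine2 (65.7 and 61.7 RPKM) were each under 3 RPKM in both LLC libraries. The 3 genes higher in LLC were all metalloproteinases at low levels: Mmp12 at 6.38 and 7.31 RPKM, Mmp13, an interstitial collagenase, at 5.01 and 3.49 RPKM, and Mmp28 at 3.34 and 2.53 RPKM. In Fibroblast none of these 3 was above 1.05 RPKM.

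Complement and inflammatory genes formed the next large stromal group. Of 18 complement and coagulation genes 13 were higher in Fibroblast, with a median log2 difference of 3.05. C3, the central complement protein, had 2158 and 3348 RPKM in Fibroblast against 22.8 and 79.7 RPKM (log2 difference 5.94, SE 0.83, adjusted p = 0.00156). Serping1, which inhibits the first complement protease, had 1756 and 2040 RPKM against 16.3 and 58.5 RPKM, and C4b had 442 and 590 RPKM against 4.50 and 18.1 RPKM. The member called higher in LLC, F3 (tissue factor), had 35.1 and 43.1 RPKM against 21.8 and 18.9 RPKM and lost its call without any 1 of the 4 libraries (adjusted p from 0.0536 to 0.112). Of 19 genes of inflammatory fibroblasts 14 were higher in Fibroblast and none higher in LLC. Cxcl12, the ligand of CXCR4, stood at 414 and 623 RPKM against 4.97 and 21.5 RPKM (log2 difference 5.46, adjusted p = 0.00148), and Saa3, an acute phase protein, at 768 and 734 RPKM against 26.5 and 31.9 RPKM. Il6 had 75.5 RPKM in Fibroblast 1 and 9.94 RPKM in Fibroblast 2, against 1.33 RPKM and a listed 0. It was called (adjusted p = 0.0131) and lost its call without LLC 2 (adjusted p = 0.0813) or Fibroblast 1 (adjusted p = 0.0838). The chemokines Cxcl14 and Ccl11 were also higher in Fibroblast (log2 differences 4.48 and 2.36, limma adjusted p = 0.000826 and 0.00927). Cxcl14 was called in all 21 alternative fits and Ccl11 in 17 of them. Some other chemokines were abundant in both groups and not called. Ccl2, which attracts monocytes, was at 383 and 263 RPKM in LLC and 191 and 101 RPKM in Fibroblast (adjusted p = 0.0616), and Cxcl1 overlapped between the groups (403 and 65.1 against 188 and 64.4 RPKM).

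Growth factors and their receptors were called in both directions. In the lists of ligands and of receptors the share higher in LLC lay below the 25.7% of all genes. The share higher in Fibroblast lay above the 13.0% of all genes. Among the PDGF, FGF, HGF and EGF type ligands 7 of 22 were higher in Fibroblast: Fgf18 (17.6 and 16.2 against 0.251 and 0.304 RPKM), Pdgfd (16.7 and 19.8 against 0.323 and 0.521 RPKM) and Fgf2 (10.2 and 15.6 against 0.139 and 0.337 RPKM) had the largest differences. Hbegf, a ligand of the EGF receptor, was higher in LLC at 11.4 and 7.86 RPKM against 2.43 and 1.33 RPKM (log2 difference -1.89, adjusted p = 0.00412), 1 of 4 ligands called there, of which 1 or 2 remained in number without any 1 of the 4 libraries, whereas Egfr itself was higher in Fibroblast at 49.2 and 66.7 RPKM against 5.36 and 6.15 RPKM (log2 difference 3.11, adjusted p = 0.00118). For HGF the order was reversed. Hgf stood at 2.95 and 3.0 RPKM in Fibroblast and 0.773 and 0.255 RPKM in LLC, and its receptor Met at 15.6 and 20.9 RPKM in LLC and 1.97 and 2.00 RPKM in Fibroblast (log2 difference -2.68, SE 0.42, adjusted p = 0.00254). Pdgfrb (65.7 and 52.4 against 6.86 and 6.39 RPKM) and Ntrk2 (24.3 and 32.5 against 0.219 and 0.597 RPKM) were receptors of the fibroblast side. Of 18 receptors 7 were higher in Fibroblast and 4 in LLC, and of those 4 only Met kept its call without each of the 4 libraries in turn. The count toward Fibroblast was 4 without LLC 1 or LLC 2. In the insulin-like growth factor system 7 of 12 genes were higher in Fibroblast, mostly binding proteins and the protease Htra3. Igfbp5 had 323 and 343 RPKM against 4.12 and 7.87 RPKM, Igfbp7 528 and 472 against 9.40 and 20.1 RPKM, and Igf1 11.5 and 20.4 against 0.622 and 1.72 RPKM. Igfbp4 was abundant in both groups (574 and 481 against 1425 and 1230 RPKM), and its call toward LLC (adjusted p = 0.0438) was lost without any 1 of the 4 libraries.

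Secreted antagonists were among the BMP and Wnt genes with the largest differences. Of 31 TGF-beta and BMP genes 16 were higher in Fibroblast and 1 in LLC. The BMP antagonists Nbl1 (211 and 187 against 2.13 and 3.84 RPKM) and Chrdl1 (56.8 and 79.3 against 0.414 and 1.61 RPKM) and the activin antagonist Fst (58.6 and 39.8 against 1.65 and 2.20 RPKM) stood beside the ligand Gdf10 (26.9 and 31.6 against 0.307 RPKM and a listed 0). Among the TGF-beta ligands, Tgfb2 was higher in Fibroblast (10.4 and 12.2 against 0.224 and 0.296 RPKM, log2 difference 3.28, adjusted p = 0.00078). Tgfb1 did not overlap between the groups and was not called (24.7 and 12.1 against 26.8 and 31.6 RPKM, adjusted p = 0.278), and Tgfb3 was higher in LLC (29.3 and 31.8 against 13.5 and 13.6 RPKM, log2 difference -1.12, adjusted p = 0.00615, or 0.0704 with upper-quartile rescaling). Of 31 Wnt genes 19 were higher in Fibroblast and 7 in LLC, the latter a share below the 25.7% of all genes. The decoy receptors Sfrp2 (230 and 206 against 2.31 and 5.83 RPKM) and Sfrp4 (394 and 416 against 4.33 and 13.8 RPKM) were stromal, as were the ligand Wnt2 and the receptor Fzd1. On the LLC side stood Dkk2, the ligand Wnt7b (23.4 and 14.7 against 0.627 and 0.75 RPKM), the membrane antagonist Apcdd1 (200 and 183 against 30.1 and 22.9 RPKM) and the decoy Frzb (7.45 and 3.75 against 0.363 and 0.144 RPKM). Their log2 differences were -4.27, -3.54, -2.82 and -2.34. Notch genes added Notch3 and Jag1, receptor and ligand of mural cells, on the fibroblast side (log2 differences 3.67 and 2.73).

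Guidance and retinoid genes held large differences in both directions. Of 38 semaphorin, plexin, ephrin and Eph genes 11 were higher in Fibroblast and 8 in LLC, the latter 4 without Fibroblast 2 and 5 without any 1 of the other 3 libraries, and 19 were not called. The share higher in LLC is below the 25.7% of all genes. Slit3, a repellent ligand, had 122 and 143 RPKM in Fibroblast against 1.26 and 4.50 RPKM, and Sema3b had 20.1 and 22.0 RPKM against 1.80 and 1.43 RPKM. LLC held Epha2, an ephrin receptor frequent on carcinoma cells (31.4 and 24.8 against 1.59 and 1.13 RPKM), Nrp2, a coreceptor of semaphorins and VEGF-C (49.2 and 62.0 against 4.30 and 3.38 RPKM), and Sema3a (16.9 and 17.1 against 2.71 and 1.64 RPKM). Of 18 retinoid genes 6 were higher in Fibroblast and 4 in LLC, the latter a share below the 25.7% of all genes. The synthesis enzymes Aldh1a3 (52.3 and 55.6 against 0.709 and 0.893 RPKM) and Aldh1a1 were higher in Fibroblast, as was Rarres2, the retinoid-induced chemokine chemerin (1176 and 1310 against 20.4 and 61.8 RPKM). Stra6, the membrane receptor for retinol uptake, was higher in LLC at 34.1 and 29.6 RPKM against 1.71 and 0.766 RPKM (log2 difference -3.90, SE 0.34, adjusted p = 0.000353), and so was Rdh10, a retinol dehydrogenase (log2 difference -1.73).

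Adhesion genes gave calls in both directions. Of 19 integrin and collagen receptor genes 5 were higher in Fibroblast and 4 in LLC, the latter a share below the 25.7% of all genes. Itga11, a collagen receptor of fibroblasts, had 26.2 and 56.4 RPKM against 0.313 and 1.23 RPKM (log2 difference 4.53, adjusted p = 0.000615). Itga3 and Itga6, laminin-binding chains of epithelial cells, were higher in LLC, at 23 and 16.1 against 0.776 and 1.09 RPKM and at 29.6 and 41.3 against 4.72 and 3.34 RPKM (log2 differences -3.40 and -2.85). Itgb7, best known from lymphocytes, had 56.8 and 41.0 RPKM in LLC against 3.97 and 4.59 RPKM. Cdh11, a cadherin of mesenchyme, was on the fibroblast side (23.4 and 20.9 against 0.640 and 1.22 RPKM), and no cadherin of the 12 tested was called higher in LLC. Cdh1, the epithelial cadherin, was at 0.022 and 0.423 RPKM in LLC, 0.262 RPKM in Fibroblast 1 and 4.50 RPKM in Fibroblast 2 (adjusted p = 0.241). Epcam, an epithelial adhesion molecule, was too low to be tested: it was listed at 0 in LLC 1 and stood at 0.454 RPKM in LLC 2, 0.328 RPKM in Fibroblast 1 and 8.93 RPKM in Fibroblast 2. Simple epithelial keratins remained in LLC, with Krt18 at 122 and 82.8 RPKM and Krt8 at 57.5 and 43.6 RPKM. In Fibroblast, Krt18 was at 5.59 and 44.9 RPKM, and Krt19 at 16.5 and 99.6 RPKM against 0.070 and 1.53 RPKM in LLC. The calls of Krt8 and Krt18 toward LLC were lost without LLC 1, LLC 2 or Fibroblast 1 (adjusted p from 0.10 to 0.231). Both were also lost in other fits, such as that of the 4 libraries alone (limma adjusted p = 0.0718 for Krt8 and 0.0768 for Krt18). Under both rescalings their limma adjusted p ran from 0.0537 to 0.103. The 26 epithelial genes summed to 35.8 RPKM in Fibroblast 1 and 242 RPKM in Fibroblast 2, so these keratin values differ more within Fibroblast than the typical gene. Several lung lineage genes were at 0. Nkx2-1, Sftpa1, Sftpb and Scgb3a2 were listed at 0 in all 4 libraries, and Hopx, a homeodomain-only protein of alveolar and other cells, was higher in LLC (32.9 and 24.3 against 2.53 and 2.87 RPKM, log2 difference -2.99, adjusted p = 0.000602).

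Of 27 transcription factors of mesenchymal cells, 16 were called: 10 were higher in Fibroblast and 6 in LLC, and 11 were not called. The share higher in LLC lay below the 25.7% of all genes. Among the 11 were 7 factors known from mesenchymal identity and epithelial-mesenchymal transition, with a level in all 4 libraries. Twist1 stood at 65.3 and 49.3 RPKM in Fibroblast and 58.8 and 45.3 RPKM in LLC (log2 difference 0.13, adjusted p = 0.756), Zeb1 at 20.9 and 24.4 against 14.0 and 14.8 RPKM (adjusted p = 0.271), and Snai2 at 15.9 and 22.5 against 14.5 and 10.7 RPKM (adjusted p = 0.208). Snai1 (25 and 14.9 against 43.7 and 29.7 RPKM), Twist2, Zeb2 and Prrx1 (109 and 113 against 76.6 and 94.4 RPKM) were not called either. These 7 were named after their values were seen, and a difference that misses the threshold does not show equal levels. Vim (vimentin), the intermediate filament of mesenchymal cells, was abundant in all 4 libraries and not called (1758 and 1355 RPKM against 2153 and 2124 RPKM, adjusted p = 0.539). Other factors on the list separated the groups. Ebf1 and Ebf2, factors of B cells and of adipose and mural mesenchyme, lay 4.15 and 3.52 higher in Fibroblast. En1 had 17.3 and 15.4 RPKM against 0.113 and 0.182 RPKM (log2 difference 3.92, limma adjusted p = 0.000385). Klf4 had 268 and 149 RPKM in Fibroblast and 11.6 and 10.3 RPKM in LLC, and it too was higher in the library with more dissociation gene RNA. A link with the dissociation genes was not tested. Nr2f1, a nuclear receptor of developing tissues, was higher in LLC at 42.4 and 26.7 RPKM against 4.91 and 2.78 RPKM (log2 difference -2.87, adjusted p = 0.000825), and Nr2f2 followed at -1.65. Among Sox, Tbx and Fox factors, Tbx18 and Tbx15 were higher in Fibroblast (log2 differences 2.74 and 1.91). Foxc1 and Foxf2 were higher in LLC (log2 differences -2.21 and -2.16).

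Hox genes, which record a cell's position along the body axis, divided by cluster. All 6 Hoxc genes tested were called higher in Fibroblast and all 5 Hoxd genes higher in LLC. A gene needed at least 1 RPKM in at least 2 libraries to be tested. Members that missed this, such as Hoxc11 and Hoxd11, are left out. Hoxc8, Hoxc9 and Hoxc10 were under 1 RPKM in LLC, and Hoxd3, Hoxd4 and Hoxd10 in Fibroblast. Such members could pass through the group where they were high, so the filter has a part in these counts. Hoxc8 stood at 17.8 RPKM in both Fibroblast libraries and at 0.203 and 0.393 RPKM in LLC (log2 difference 3.86, SE 0.28, adjusted p = 0.000291). Hoxc6 stood at 24.1 and 15.9 against 1.51 and 1.61 RPKM, Hoxc9 at 9.52 and 7.37 RPKM against a listed 0 and 0.136 RPKM, and Hoxc10 at 8.65 and 6.72 against 0.201 and 0.244 RPKM. Hoxc4 and Hoxc5 were lower but called as well (log2 differences 2.02 and 1.68). Hoxd9 had 21.4 and 20 RPKM in LLC against 1.74 and 0.201 RPKM (log2 difference -3.58, SE 0.49, adjusted p = 0.00152), and Hoxd10 had 12.4 and 5.92 against 0.052 and 0.114 RPKM. Hoxd4 and Hoxd3 lay lower in Fibroblast by 2.63 and 2.49 on the log2 scale. Hoxd8 was the member with a level in both groups (29.3 and 22.9 against 10.3 and 5.63 RPKM), and it lost its call without any 1 of the 4 libraries, with adjusted p from 0.0555 to 0.171. The Hoxa and Hoxb genes did not divide in this way: 9 Hoxa genes gave 2 calls toward Fibroblast and 1 toward LLC, and 8 Hoxb genes gave 3 toward LLC. Of those 6 calls, only that of Hoxa9 (log2 difference 1.33) held without each of the 4 libraries in turn. Over all 28 Hox genes, 8 were higher in Fibroblast and 9 in LLC, and the second count was 4 without LLC 1, 5 without LLC 2 or Fibroblast 1 and 5 with upper-quartile rescaling. Of all genes tested, 13.0% were higher in Fibroblast and 25.7% in LLC. The division by cluster was noticed after the values were seen.

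**Figure D3:**
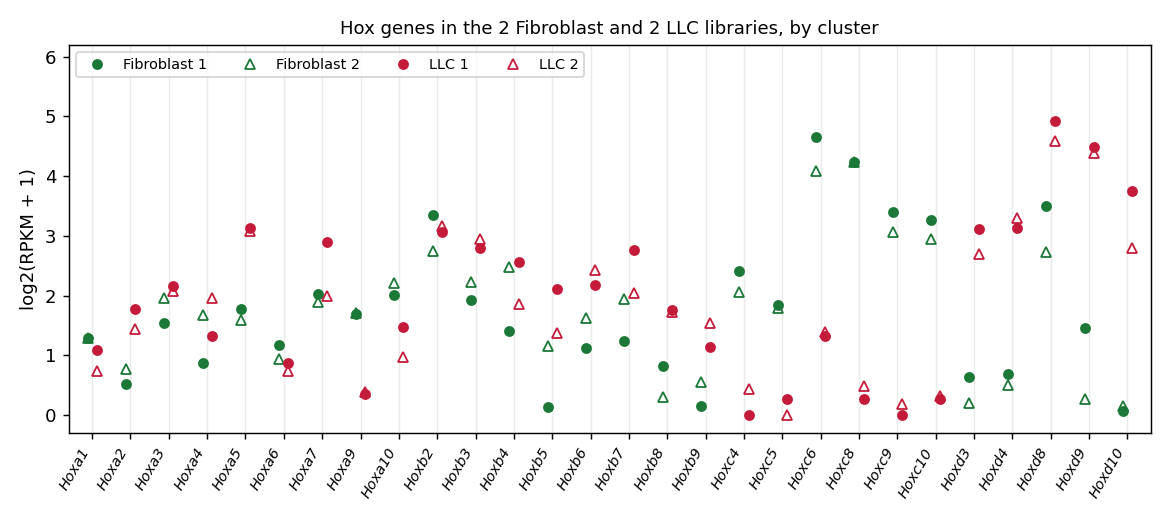
Levels of 28 Hox genes, ordered by cluster, in the 2 Fibroblast (green) and 2 LLC (red) libraries, as log2(RPKM + 1); circles are library 1 and triangles library 2. Hoxc genes lie higher in Fibroblast, Hoxd genes lie higher in LLC, and the Hoxa and Hoxb genes lie on both sides with smaller gaps.

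Oncofetal and imprinted genes, active in embryos and expressed from 1 parental copy in the case of imprinting, were divided as well. Of 15 tested, 6 were higher in Fibroblast and 6 in LLC, or 4 in LLC without LLC 2 or Fibroblast 2. On the LLC side, the RNA-binding protein Igf2bp2 had 86.4 and 90.2 RPKM against 6.65 and 5.04 RPKM (log2 difference -3.72, SE 0.25, adjusted p = 0.000272), beside Hmga2 and Hmga1. H19, an imprinted noncoding RNA, had 133 and 373 RPKM in LLC against 35.6 and 23.1 RPKM (log2 difference -2.91, adjusted p = 0.00848), and its call was lost without LLC 2 (adjusted p = 0.0531) or Fibroblast 2 (adjusted p = 0.0779). Its imprinted neighbour Igf2 stayed at or under 1.59 RPKM in all 4 libraries. The fibroblast side held genes of another imprinted locus. Meg3, a maternally expressed noncoding RNA, had 179 and 95.4 RPKM in Fibroblast against 2.07 and 3.34 RPKM (log2 difference 5.18, SE 0.48, adjusted p = 0.000385). Rian and Mirg, noncoding RNAs of the same locus, had 52.0 and 38.1 against 0.594 and 0.784 RPKM and 9.59 and 5.05 RPKM against a listed 0 and 0.540 RPKM (log2 differences 4.75 and 2.69), and were named after their values were seen. Dlk1, the paternally expressed gene of that locus, had 6.07 and 2.48 RPKM against 0.089 RPKM and a listed 0. Grb10 (65.6 and 82.3 against 1.05 and 1.91 RPKM), Ndn (70.7 and 68.0 against 0.757 and 3.25 RPKM), Plagl1 and Cdkn1c, an imprinted inhibitor of the cell cycle (26.2 and 34.7 against 0.202 and 0.613 RPKM), were higher in Fibroblast too. Peg3 went the other way without a call (2.42 and 2.26 against 26.5 and 47.5 RPKM, SE 1.23, adjusted p = 0.0587).

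Proliferation genes were higher in LLC almost without exception. Of 32 DNA replication genes, 31 were called higher in LLC, and of 28 mitosis genes all 28, with median log2 differences of -1.98 and -2.25 (-1.52 and -1.79 relative to all genes). Top2a, a topoisomerase of dividing cells, had 94.6 and 73.2 RPKM in LLC against 11.6 and 7.39 RPKM (log2 difference -3.03, SE 0.34, adjusted p = 0.000656). Cdt1, which licenses replication origins, had 57.6 and 36.9 RPKM against 5.20 and 3.38 RPKM, and the replicative helicase gene Mcm5 68.2 and 52.3 against 8.32 and 6.06 RPKM. Mki67, the proliferation antigen Ki-67, had 37.4 and 30.9 RPKM against 6.54 and 4.81 RPKM and lost its call without LLC 1 (adjusted p = 0.0551) or Fibroblast 2 (adjusted p = 0.0646). In every tested gene of both lists the 2 Fibroblast libraries lay below the 2 LLC libraries. Over all genes tested, the libraries did not overlap, in either direction, in 79.2%. The counts depended on LLC 1 and Fibroblast 2, however, with 18 replication genes called without LLC 1 and 18 without Fibroblast 2, and 16 and 15 mitosis genes. With upper-quartile rescaling they were 26 and 25. The Fibroblast levels were low but above 0, at 11.1 and 8.21 RPKM for Ube2c against 90.2 and 53.7 RPKM. The D-type cyclin Ccnd1 was higher in LLC as well (71.1 and 73.6 against 19.4 and 20 RPKM, adjusted p = 0.000825), as was Gadd45a, a stress-induced growth arrest gene (120 and 67.2 against 11.6 and 7.25 RPKM). Cdkn2a, a tumor suppressor that blocks the cyclin D kinases, was too low to be tested: it was listed at 0 in both LLC libraries and in Fibroblast 2 and stood at 0.519 RPKM in Fibroblast 1.

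These genes differed in the same direction, and their promoters share short motifs, so the sequences of 5 of them are shown. Promoters of 300 bases, from 250 before to 50 after the start, were taken from RefSeq (GRCm38.p6), a later build than the mm9 of the expression values, and matched by symbol. They were searched on both strands for the CHR (letters TTTGAA or TTCGAA) and the CCAAT box (CCAAT), both known from genes used late in the cell cycle. The E2F site (TTTCCCGC, TTTCGCGC, TTTGCCGC or TTTGGCGC), known from genes of DNA synthesis, was searched likewise. The mitosis genes matched 24 promoters, of which 19 (79.2%) held a CHR and 19 a CCAAT box, against 19.2 and 37.4% of all 32851 promoters of the same length. Of 31 promoters of the replication genes 11 (35.5%) held an E2F site, against 2.26% of all promoters, and 1 of the 24 mitosis promoters did. A match is a description of letters and not a bound site. Capitals mark the CHR and CCAAT matches in Ccnb2, Cdc20 and Plk1 and the E2F matches in Mcm5 and Mcm3, on either strand, and all are written 5′ to 3′ in the direction of the gene. The promoters lie at chr9:70421505-70421804 (minus strand) for Ccnb2, chr4:118437294-118437593 (minus strand) for Cdc20, chr7:122159185-122159484 (plus strand) for Plk1, chr8:75109259-75109558 (plus strand) for Mcm5 and chr1:20820263-20820562 (minus strand) for Mcm3.
Ccnb2: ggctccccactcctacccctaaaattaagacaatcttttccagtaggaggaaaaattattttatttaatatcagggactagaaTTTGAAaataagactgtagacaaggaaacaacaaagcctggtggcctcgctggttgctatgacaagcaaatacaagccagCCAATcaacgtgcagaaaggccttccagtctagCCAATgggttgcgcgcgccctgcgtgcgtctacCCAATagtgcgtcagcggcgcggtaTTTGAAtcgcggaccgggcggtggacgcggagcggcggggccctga
Cdc20: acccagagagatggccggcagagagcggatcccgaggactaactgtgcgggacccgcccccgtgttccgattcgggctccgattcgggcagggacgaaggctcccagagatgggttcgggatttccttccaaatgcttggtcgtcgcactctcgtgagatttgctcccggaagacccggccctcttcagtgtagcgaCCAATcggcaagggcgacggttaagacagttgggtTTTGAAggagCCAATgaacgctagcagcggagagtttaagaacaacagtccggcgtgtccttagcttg
Plk1: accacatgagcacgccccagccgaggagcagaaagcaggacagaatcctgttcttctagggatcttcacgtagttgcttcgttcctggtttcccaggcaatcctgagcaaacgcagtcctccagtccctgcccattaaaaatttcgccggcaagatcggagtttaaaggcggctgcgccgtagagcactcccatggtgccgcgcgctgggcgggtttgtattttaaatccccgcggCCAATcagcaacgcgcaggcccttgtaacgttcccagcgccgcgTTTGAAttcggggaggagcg
Mcm5: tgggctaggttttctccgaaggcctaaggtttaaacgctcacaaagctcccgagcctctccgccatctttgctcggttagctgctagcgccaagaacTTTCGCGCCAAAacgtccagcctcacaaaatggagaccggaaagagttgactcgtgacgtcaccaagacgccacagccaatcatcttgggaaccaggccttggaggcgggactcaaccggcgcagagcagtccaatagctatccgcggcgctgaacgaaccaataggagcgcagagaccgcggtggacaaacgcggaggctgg
Mcm3: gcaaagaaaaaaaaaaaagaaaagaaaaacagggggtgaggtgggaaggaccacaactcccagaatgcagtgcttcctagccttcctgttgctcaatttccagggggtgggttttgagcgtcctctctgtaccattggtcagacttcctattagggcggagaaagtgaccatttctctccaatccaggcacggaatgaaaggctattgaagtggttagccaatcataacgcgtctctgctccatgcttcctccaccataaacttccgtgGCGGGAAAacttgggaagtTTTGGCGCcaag
Ccnb2, a cyclin of mitosis, held 2 CHR and 3 CCAAT matches and stood at 76.1 and 50.8 RPKM in LLC against 15.1 and 12.2 RPKM in Fibroblast (log2 difference -2.11). Cdc20, an activator of the anaphase-promoting complex, had 40.9 and 23.6 against 8.07 and 5.22 RPKM. Plk1, a mitotic kinase, had 39.7 and 18.1 against 8.19 and 3.55 RPKM, and its call (limma adjusted p = 0.00889) was lost without LLC 1 (adjusted p = 0.0680) or Fibroblast 2 (adjusted p = 0.0771). Mcm3 and Mcm5, subunits of the replicative helicase, each held 2 E2F matches and lay lower in Fibroblast, with log2 differences of -2.87 and -2.90. In Mcm5 the 2 matches, on opposite strands, overlap in the same stretch of capitals, and in Mcm3 they lie apart. The 5 were chosen for their matches among the called genes, after their values were seen, so the matches themselves are no test.

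Growth signalling and biosynthesis genes were mostly higher in LLC. Of 23 genes of the Ras pathway and MYC, 12 were called higher in LLC and 1 in Fibroblast. The first count was 7 with upper-quartile rescaling, 7 without LLC 1 and 6 without Fibroblast 2. Dusp6, a phosphatase that ERK signalling induces, had 125 and 105 RPKM in LLC against 12.5 and 11.1 RPKM (log2 difference -3.18, SE 0.22, adjusted p = 0.000272). Etv4 and Etv1, ETS factors downstream of the same kinases, had 30.5 and 23.4 against 2.98 and 1.63 RPKM and 8.54 and 12 against 0.178 and 0.779 RPKM. Myc had 345 and 222 RPKM in LLC against 104 and 43.8 RPKM, and its difference of -2.02 (adjusted p = 0.0109) did not pass without LLC 1 (adjusted p = 0.0853) or Fibroblast 2 (adjusted p = 0.0830). Rras2, a Ras-related GTPase, was the member higher in Fibroblast (56.4 and 45.0 against 14.1 and 9.13 RPKM).

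Of 22 ribosome biogenesis genes 21 were higher in LLC, led by Ncl (nucleolin; 208 and 160 against 35.7 and 33.4 RPKM) and Odc1, the first enzyme of polyamine synthesis (49.6 and 49.0 against 10.5 and 7.56 RPKM). The number was 12 with upper-quartile rescaling and without Fibroblast 1, and 10 without LLC 1 or Fibroblast 2. In amino acid metabolism 16 of 27 genes were higher in LLC and 2 in Fibroblast, and the first count was 9 without LLC 1 or Fibroblast 2, 10 without Fibroblast 1 and 10 with upper-quartile rescaling. The transporter Slc38a1 had 19.8 and 22.3 RPKM against 0.559 and 0.747 RPKM (log2 difference -3.74, adjusted p = 0.000346), and Phgdh, the first enzyme of serine synthesis, 28.2 and 21.3 against 2.53 and 2.38 RPKM. Among 26 glycolysis and hypoxia genes 14 were called higher in LLC, 8 without LLC 1, 6 without Fibroblast 1, 2 without LLC 2 or Fibroblast 2 and 7 with upper-quartile rescaling. Egln3, an oxygen-sensing hydroxylase that hypoxia induces, differed between the LLC libraries (42.3 and 108 RPKM) and stood at 3.92 and 1.97 RPKM in Fibroblast (log2 difference -4.17, SE 0.46, adjusted p = 0.000656). Car9, another hypoxia gene, was also higher in LLC 2 than in LLC 1 (11.0 and 3.01 RPKM), with 0.740 and 0.541 RPKM in Fibroblast, and its call was lost without LLC 2 (adjusted p = 0.0810) or either Fibroblast library (adjusted p = 0.0857 and 0.109). Oxidative phosphorylation (8 of 26) and cytosolic ribosomal protein genes (7 of 28) were called higher in LLC at shares near the 25.7% of all genes. These counts were at most 2 without any 1 of the 4 libraries, whereas the fit of the 4 libraries alone called 18 and 25 of them and that of the 6 sorted libraries 20 and 26. Quantile normalization called 8 and 17. No member was called higher in Fibroblast in any of these fits, and the number called depended on the fit.

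Antigen presentation differed by gene. Of 21 genes of MHC class I presentation, 10 were higher in Fibroblast and none in LLC, and the count was 5 without Fibroblast 2. H2-Q7, a nonclassical class I gene, had 21.1 and 17.4 RPKM in Fibroblast against 1.62 and 1.86 RPKM (log2 difference 2.88, adjusted p = 0.000346), and Psmb8, a subunit of the immunoproteasome, 54.4 and 64.1 against 10.5 and 11.5 RPKM. H2-K1 stood at 408 and 493 RPKM against 111 and 109 RPKM, with adjusted p = 0.00433, or 0.0522 without Fibroblast 2. Reads of class I genes can be shared between near copies, so single members are uncertain. B2m, the light chain common to all of them, was at 2344 and 2997 RPKM against 2013 and 1691 RPKM and was not called (adjusted p = 0.569). Of 28 interferon-stimulated genes 7 were called higher in Fibroblast, against 1 without LLC 1, 2 without LLC 2, 3 without Fibroblast 1 and 0 without Fibroblast 2. Ifi44 was higher in LLC (36.6 and 35.5 against 7.25 and 9.44 RPKM, log2 difference -2.0, adjusted p = 0.00146), and 1 gene was called there in each of those fits.

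**Figure D4:**
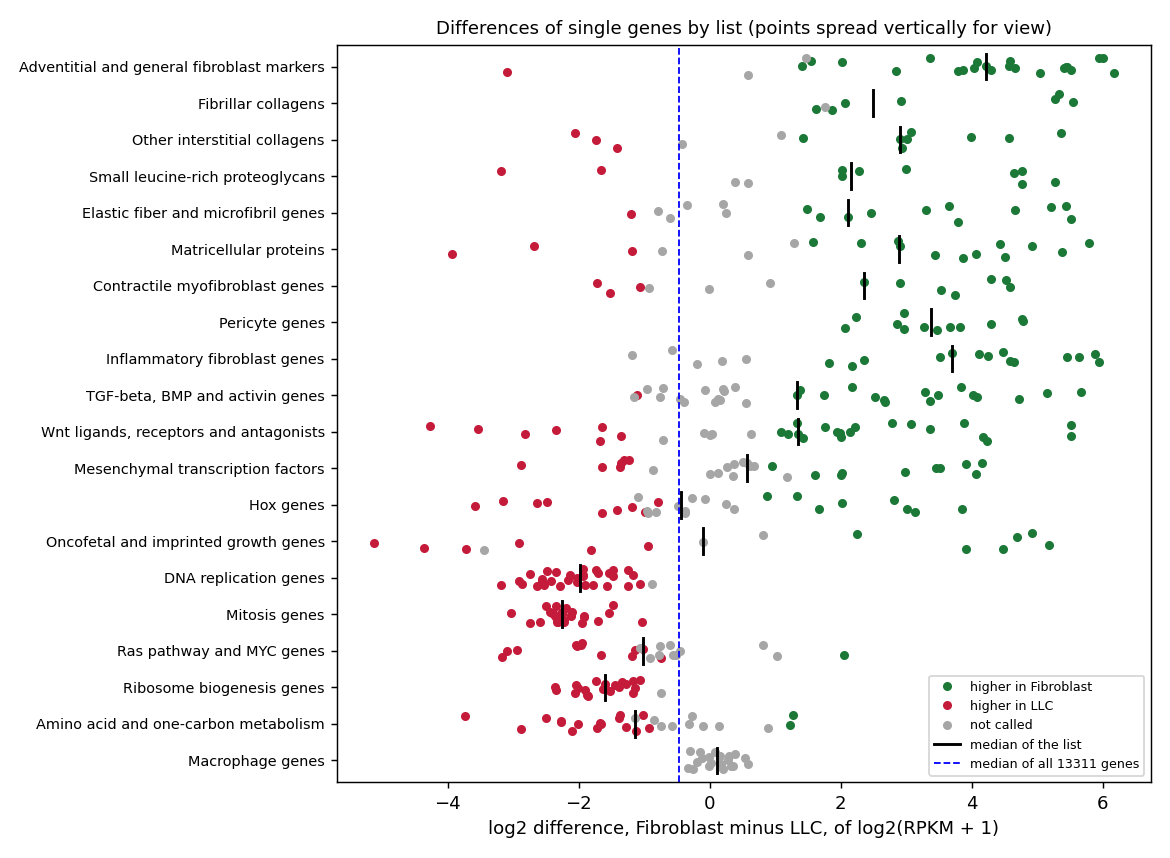
Log2 difference, Fibroblast minus LLC, of every tested member of 20 gene lists; green points were called higher in Fibroblast, red points higher in LLC and grey points not called, the black bar is the list median and the dashed line the median of all genes (-0.46). Matrix, pericyte and inflammatory lists lie to the right, the 32 replication and 28 mitosis genes all lie left of 0, and mesenchymal factors and Hox genes spread to both sides.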

How the data were processed

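RNA of the sorted cells (200 ng, poly-dT primed, NEBNext library kit) was sequenced as 50 bp reads, per the labels' protocols. The authors deposited 1 table of RPKM values for 31645 transcripts in 8 libraries; STAR, HOMER and the build mm9 are named in the submitters' processing notes, without versions; for aligner parameters and strand the sources used here give nothing. Reads of overlapping genes, antisense partners and near-identical copies therefore cannot be told apart.

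Each of the 23952 symbols was represented by the transcript with the highest mean RPKM. Genes with at least 1 RPKM in at least 2 libraries (13311) were fitted as log2(RPKM + 1) over all 4 groups with limma 3.58.1 (eBayes with trend) in R 4.3.3, and p-values were adjusted by Benjamini-Hochberg. The fit was tested on simulated data. Tables and plots used Python 3.11.15, pandas 2.3.3 and matplotlib 3.10.9. Gene lists (55, with 1126 names) were matched by symbol or alias, and 4 names (Rhox5, Trbc1, Iglv1, Ly6g) were unmatched. The members and lists were chosen with earlier results of these data known.

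Named genes are the 15 largest called differences in each direction with a mean of at least 10 RPKM in the higher group and no overlap, up to 4 called members per direction of each list with a mean of at least 5 RPKM, some genes named in any case (the 4 markers and Col1a1, Col1a2, Col3a1, Vim, Cdh1, Epcam, Cdkn2a, Myc, Acta2, Pdgfra, Pdgfrb, Fap, S100a4, H19, Igf2, Hmga1, B2m, Mki67, Tgfb1, Emr1 and Ptprc), and the highest members of other cell types' lists; some genes of this rule are not reported here. Outside this rule, chosen after their values were seen, are Adamts14, Anpep, Aspn, Ccl11, Ccl2, Ccnb2, Cd34, Cd74, Cdc20, Col5a1, Cxcl1, Cxcl14, Dcn, Dlk1, Dpp4, Dpt, Fn1, Hgf, Hoxa9, Hoxc4, Hoxc5, Hoxd8, Igf1, Il6, Loxl3, Lum, Mirg, Mmp13, Mmp14, Mmp28, Mrc2, P4ha1, P4ha3, P4hb, Pcolce, Pdpn, Peg3, Plagl1, Plk1, Podnl1, Prrx1, Rian, Saa3, Serpinh1, Snai1, Snai2, Tgfb2, Thy1, Twist1, Twist2, Zeb1 and Zeb2.

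Alternatives were other pseudocounts, filters and scalings, no variance trend, a replicate block, means over transcripts, protein-coding genes alone, a minimum 2-fold difference, fewer libraries, each library left out in turn and, added after seeing the data, the 6 sorted libraries alone.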

Additional observations from a re-analysis of the deposited data

How the results depend on the processing

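Of the 257 named genes called, 184 kept the call in every alternative they could be tested in except the test against a minimum 2-fold difference, 73 lost it in at least 1, and none reversed. With that 2-fold minimum 1206 genes were called, 803 higher in Fibroblast and 403 higher in LLC. Upper-quartile rescaling gave 1480 genes higher in LLC, and the fit of the 4 Fibroblast and LLC libraries alone gave 5230. Leaving out 1 library at a time gave 2306 to 7146 called genes, 1174 to 2042 higher in Fibroblast and 1132 to 5104 higher in LLC. The low ends came from leaving out an LLC or Fibroblast library (2306 without LLC 1) and the high ends from leaving out a Total tumor library (7146 without Total tumor 1). Between 196 and 257 named genes were then called, and 39 to 41 lists had a median above that of all genes. A filter at 5 RPKM leaves fewer members. After subtracting the median of all genes, it reversed the sign of 2 list medians, to -1.53 for epithelial genes and 0.34 for hyaluronan genes. With the replicate number as a block 4393 genes were called, 4362 of them among the 5142. The deviations of same-numbered libraries from their group means correlated at 0.206 between Fibroblast and LLC, 0.162 between Fibroblast and TAM and 0.274 between LLC and TAM, and at -0.179 to -0.361 with Total tumor. Number 1 was also the deeper library of each group (8.54 to 10.37 against 4.28 to 4.72 M reads), so these correlations, from 2 libraries a group, do not settle whether the numbers pair samples. In the 6 sorted libraries alone, a fit added after seeing the data, 7147 genes were called. Apart from fewer libraries or genes in the fit, the causes of these changes were not tested. With 2 libraries per group and estimated depths down to 4.28 M reads, the precision for genes with low values is limited.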
